A study of Homo sapiens with 24 samples.

Results

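NPTX2, HAS2, IL24 and A2M code for proteins that are secreted or that make an extracellular product. They were selected on the difference between 143B rho0 and rho+ cells, and the question followed here is whether HEK293 cells, with and without mtDNA depletion, also use them. Probe sets were taken where the platform annotation gives 1 of these symbols alone. This gave 6 probe sets for the 4 genes (1 each for NPTX2 and IL24, 2 each for HAS2 and A2M) of 41091 probe sets with a single symbol, which stand for 19775 genes.

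The series holds 24 Affymetrix HG-U133 Plus 2.0 arrays, 3 cultures in each of 8 groups. 143B is an osteosarcoma line, and its rho0 derivative is chronically depleted of mtDNA, whereas the parental rho+ cells keep it. The HEK293 cells (HEK293T in the study's methods) are of embryonic kidney origin and carry DN-POLG, a dominant-negative form of the mtDNA polymerase that doxycycline switches on. For DN-POLG cells the arrays cover day 0, day 3, day 6 and day 9 with the drug. AOX/NDI1 cells carry the same DN-POLG transgene and in addition express AOX, an alternative oxidase, and NDI1, a yeast NADH dehydrogenase, which together can pass electrons from NADH to oxygen without the complexes that mtDNA codes for, and they were taken at days 9 and 0. The study's methods give high glucose medium with uridine and pyruvate for both 143B lines, so rho+ cells received these supplements too. For the HEK293 cells they refer to an earlier report, and flasks of these cells were pooled at the later days. Day 0 cells had no doxycycline, hence the drug itself and DN-POLG cannot be told apart. Each 143B group is a single line, thus loss of mtDNA cannot be told apart from other differences between the lines, and the spread is that between cultures.

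NPTX2, neuronal pentraxin 2, is a secreted pentraxin that gathers AMPA-type glutamate receptors at synapses. HAS2 is a plasma membrane enzyme that builds hyaluronan, the long sugar polymer of the extracellular matrix, which CD44 and HMMR bind at the cell. IL24 is a cytokine of the IL-10 family that signals through receptor pairs of IL20RA or IL22RA1 with IL20RB. A2M, alpha-2-macroglobulin, is a secreted protein that traps proteases of many classes, after which LRP1 clears the complex.

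Of the 4 genes, NPTX2 and IL24 have an entry in the RefSeq table of promoters (2 of 4 matched). Their promoter windows, 250 bases before to 50 after the gene's start on the plus strand of GRCh38.p14, are shown because the HEK293 signals of NPTX2 lay above all olfactory receptor probe sets, taken as background, and those of IL24 did not. Capitals mark CG dinucleotides, the bases that carry DNA methylation. NPTX2 lies at chr7:98617035-98617334 and IL24 at chr1:206897193-206897492.
NPTX2: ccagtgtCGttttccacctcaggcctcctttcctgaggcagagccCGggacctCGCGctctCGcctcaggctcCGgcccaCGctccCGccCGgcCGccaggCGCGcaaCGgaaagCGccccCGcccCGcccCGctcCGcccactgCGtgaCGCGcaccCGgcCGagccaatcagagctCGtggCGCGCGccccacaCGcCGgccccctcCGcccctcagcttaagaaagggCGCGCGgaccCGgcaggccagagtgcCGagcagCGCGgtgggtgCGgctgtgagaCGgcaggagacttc
IL24: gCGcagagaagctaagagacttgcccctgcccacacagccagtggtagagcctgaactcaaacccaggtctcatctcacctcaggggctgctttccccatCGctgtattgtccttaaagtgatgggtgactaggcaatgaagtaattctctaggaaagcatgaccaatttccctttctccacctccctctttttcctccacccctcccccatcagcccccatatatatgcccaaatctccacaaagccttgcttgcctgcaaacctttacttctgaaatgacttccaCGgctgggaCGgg

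The NPTX2 window held 39 CG dinucleotides and a G and C content of 74.3%, while that of IL24 held 4 and 52.0%. Of 35116 RefSeq promoter windows, whose median count was 14, 91.3% held fewer CG dinucleotides than that of NPTX2 and 70.4% held more than that of IL24. On either strand, the GC box GGGCGG matched 5 times in NPTX2 and 0 times in IL24 (in 44.95% of all windows at least once). CCAAT matched 1 time in each (34.6%), and TGACG, the core of cAMP response elements, 1 time in NPTX2 and 0 times in IL24 (24.6%). The TATA box TATAAA (11.5%) and the AP-1 motif TGANTCA (7.71%) had no match in either window. No match says only that these letters are not in the window. Methylation of these windows was not analysed here.

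**Figure D1:**
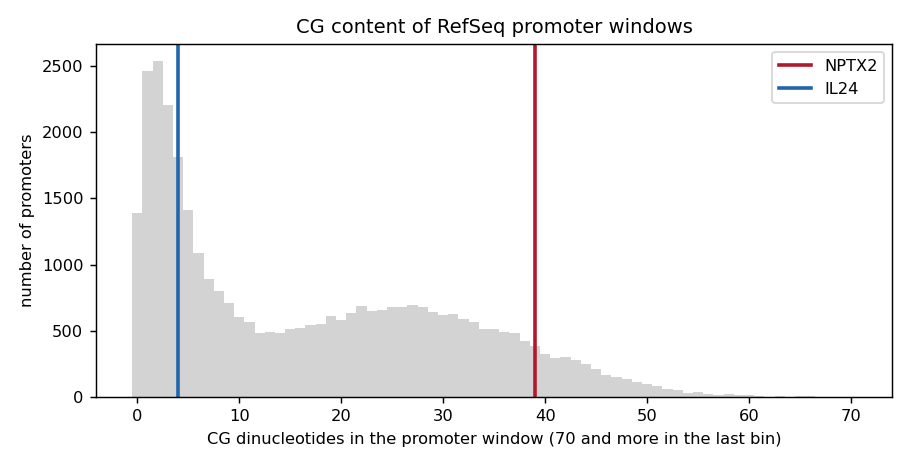
Number of RefSeq promoter windows (y axis) by the number of CG dinucleotides they hold (x axis), over 35116 windows of 300 bases. The lines mark NPTX2 with 39 and IL24 with 4, which fall in different parts of a distribution whose median is 14.

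Levels are MAS5 signals on a linear scale that the authors deposited. As the files hold no detection calls, each signal was placed among the 107 olfactory receptor probe sets of the same array, genes that neither line should use. Their 95th percentile was a signal of 23.96 to 25.3 in rho0 arrays, 37.7 to 47.7 in rho+ arrays and 43.9 to 105 in HEK293 arrays. Probe sets differ in their own background, so this places a signal and does not decide whether a gene is used. Since the 95th percentile of olfactory receptor probe sets differed between groups, counts above them are not directly comparable between the cell lines.

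The transcripts that the study targets served as a check of the labels. All 10 probe sets of 7 mtDNA genes were lower in every rho0 array than in any rho+ array. In HEK293 cells 6 of the 10 were lower in every array of day 9 than in any of day 0 in DN-POLG cells, and 8 of the 10 in AOX/NDI1 cells. COX2 by 1 of its 2 probe sets had signals of 10719 to 13152 at day 9 and 35826 to 53939.5 at day 0 of DN-POLG cells. COX1 overlapped in both lines, with 40022.8 to 44617 at day 9 and 42739 to 59651 at day 0 of DN-POLG cells. POLG, by the 1 of its 3 probe sets whose signal followed doxycycline, had 2834 to 4739 at day 9 and 280.1 to 421 at day 0. In AOX/NDI1 cells it had 447, 2468 and 4035 at day 9 and 197 to 274 at day 0, so day 9 replicate 3 had the weakest induction. Of 12 markers of 143B, 9 were higher in 143B than in HEK293 cells, and of 7 HEK293 markers on the array (of 8 listed), 5 were higher in HEK293 cells. The summed signal of the 143B markers was 75283 to 97788 in rho0, 68815 to 76091 in rho+ and 23982 to 48070.3 in HEK293 arrays, and that of the HEK293 markers was 5609 to 9164, 8646 to 10240.5 and 11489 to 16009.

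Within 143B, rho0 replicate 3 stood apart. Log2 signals of the tested probe sets correlated at 0.979 between rho0 replicates 1 and 2 but at 0.888 and 0.894 with replicate 3, against 0.946 to 0.955 among rho+ arrays (across probe sets, which are not independent). The ratio of the 3′ to the 5′ ACTB control probe set, a sign of RNA degradation, was 5.53 to 8.12 in rho0 and 10.4 to 17.1 in rho+ arrays, with no overlap (p = 0.1, exact permutation test, two-sided, the smallest that 3 against 3 arrays allow). The GAPDH ratio was 1.48 to 2.40 in rho0 and 1.75 to 2.91 in rho+ arrays (p = 0.4, same exact permutation test). Among HEK293 arrays the ACTB ratio was 1.05 to 1.81, except for 8.92 in DN-POLG day 6 replicate 1. The part of these differences in the results was not tested.

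NPTX2 had signals of 2199, 2244 and 1433 in rho0 cells, against 19.8, 18.9 and 3.04 in rho+ cells. All rho0 signals lay above each of the 107 olfactory receptor probe sets of their array, whereas the rho+ signals lay above 80, 87 and 35 of them, within the range of these probe sets. The lowest rho0 signal was 72.3 times the highest rho+ signal. The log2 difference of 7.52 (range 6.63 to 7.98 with 1 array left out, 7.73 without rho0 replicate 3, 6.63 without rho+ replicate 3) was the highest of 22786 probe sets. It was 6.07 with 16 added to each signal, since the rho+ signals are low, and its size is uncertain for this reason.

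HAS2 was read by 2 probe sets that moved together. The first, 206432_at, had signals of 1774, 1770.3 and 421 in rho0 cells, against 26.6, 24.9 and 85.6 in rho+ cells. The second, 230372_at, had 3006, 2889 and 613 in rho0 cells, against 74.3, 43.7 and 158 in rho+ cells. In both, rho0 replicate 3 was low and rho+ replicate 3 high, yet the groups did not overlap: the closest arrays differed 4.92 and 3.87 times. The rho+ signals were higher than those of 90 to 106 and of 102 to 107 of the 107 olfactory receptor probe sets, so these data do not place HAS2 in rho+ cells as clearly at background as NPTX2.

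The log2 differences of HAS2 were 4.84 and 4.45, ranks 2 and 5 among the rises in 143B. Without rho0 replicate 3 they were 5.53 and 5.20, or 46.1 and 36.8 times in place of 28.6 and 21.8 times. The signals of replicate 3 were 23.8% and 20.8% of the mean of the other rho0 arrays.

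IL24 had signals of 1638, 1488 and 916 in rho0 cells, against 153, 91.3 and 30.4 in rho+ cells. The groups did not overlap, the closest arrays differing 5.97 times. The log2 difference was 4.12, rank 7 among the rises. It was 4.37 without rho0 replicate 3 and 3.46 without rho+ replicate 3, the lowest of its group. In rho+ cells IL24 lay above 94 to 107 of the 107 olfactory receptor probe sets, thus not clearly at background either.

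A2M ran the other way, and its probe sets disagreed. Probe set 217757_at had signals of 165, 208 and 105 in rho0 cells, against 1179, 1666 and 1146 in rho+ cells. The groups did not overlap, and the log2 difference was -3.09 (-2.82 without rho0 replicate 3), rank 85 among the falls. All 3 rho0 signals were still above each of the 107 olfactory receptor probe sets and above the median of their array, so A2M was lower in rho0 cells rather than at the level of these probe sets. Probe set 1558450_at had 44.2, 11.4 and 95.8 in rho0 cells, against 140.1, 71.6 and 58.9 in rho+ cells, and here the groups overlapped (log2 difference -1.20, or -1.90 to -0.37 with 1 array left out, the ends being those without rho0 replicates 3 and 2; mean below the signal filter of 83.3).

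**Figure D2:**
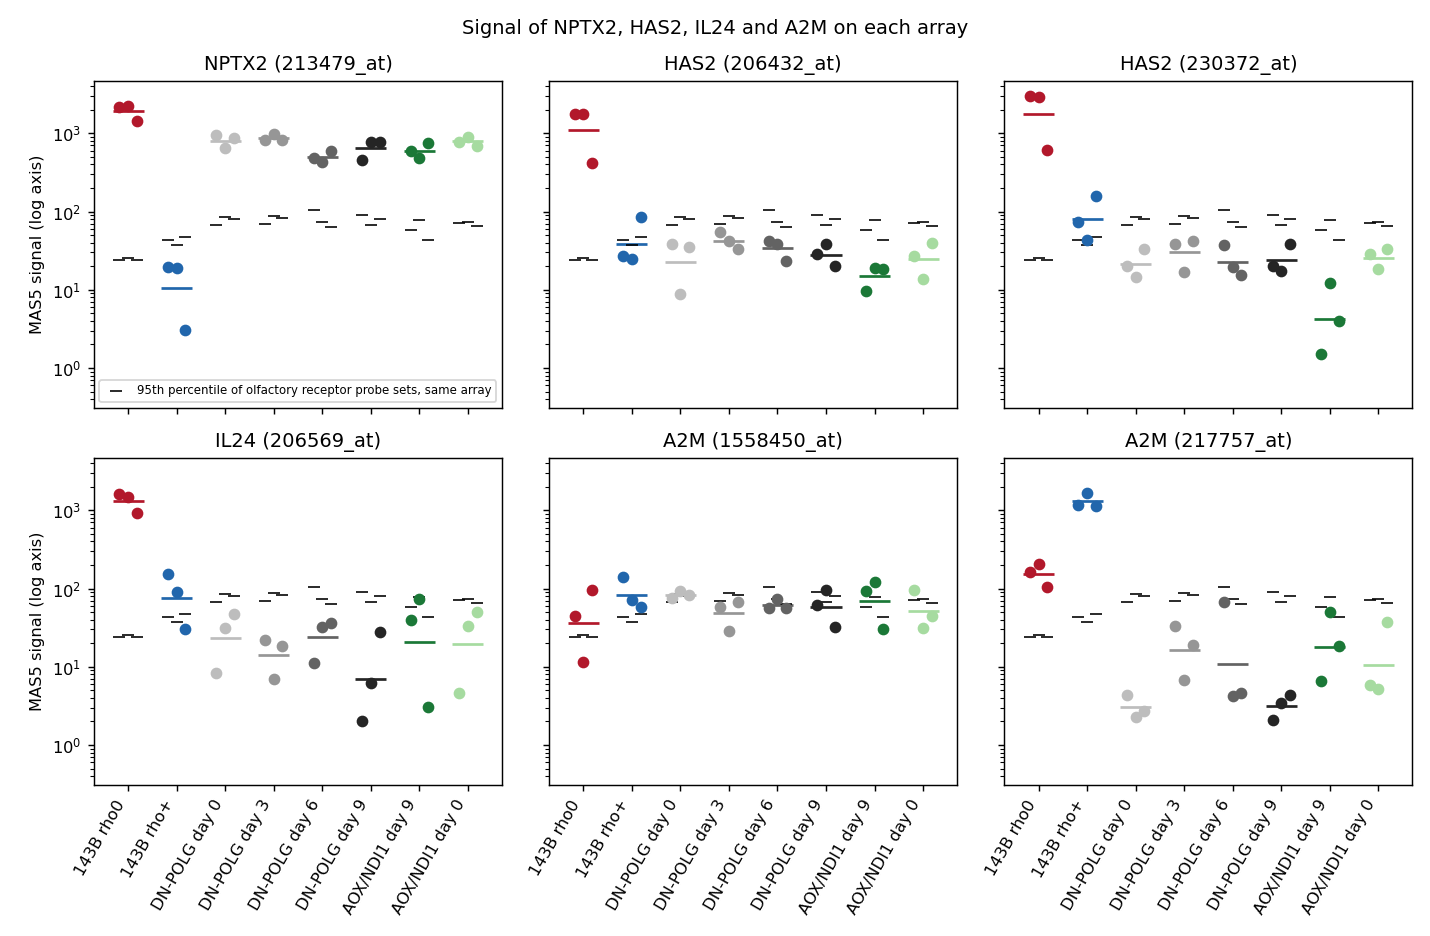
MAS5 signal (y axis, log scale) of each of the 6 probe sets on each of the 24 arrays, by group (x axis). Points are arrays, coloured lines the geometric mean of the 3 arrays, and black ticks the 95th percentile of the 107 olfactory receptor probe sets of the same array. NPTX2 is high in rho0 and all HEK293 groups, HAS2 and IL24 in rho0 cells, and A2M (217757_at) in rho+ cells.

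Since the 4 genes were selected on this contrast, these differences are descriptions and were not tested. Among all 22786 probe sets tested in 143B cells, 7.65% passed an adjusted p of 0.05 in limma in either direction, a share that stands here as background only. Of the 6 member probe sets, 5 passed the signal filter. NPTX2, HAS2 and IL24 passed through their rho0 arrays, whereas A2M 217757_at lay above the filter in both groups. The neighbours of the members among the 5 largest rises were COL22A1, a collagen (log2 difference 4.77), and LAMA4, a laminin chain (4.49), both matrix genes. The 5 largest falls were of mtDNA transcripts: COX2 by 2 probe sets (-11.67 and -11.61), ND2 (-11.09), COX3 (-10.40) and COX1 (-9.74).

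**Figure D3:**
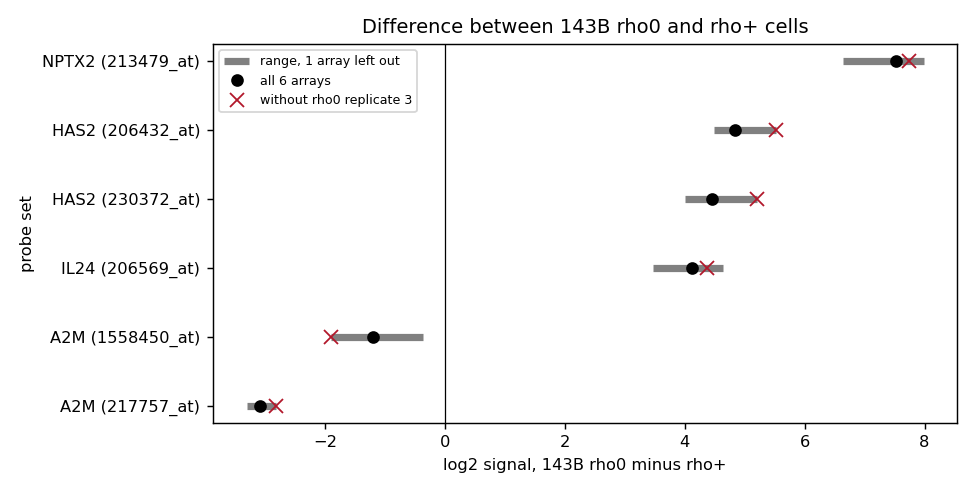
Difference in log2 signal, 143B rho0 minus rho+ (x axis), for the 6 probe sets (y axis). Black points use all 6 arrays, grey bars span the values with 1 array left out, and crosses leave out rho0 replicate 3. Bars run from 6.63 to 7.98 for NPTX2 and from -3.31 to -2.82 for A2M 217757_at. The genes were selected on this contrast. Where the groups do not overlap, as for all but A2M 1558450_at, leaving out 1 array cannot move a bar across 0.

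HEK293 cells gave the members another pattern: of the 4 genes, NPTX2 alone had signals clear of the olfactory receptor probe sets. It had signals of 424 to 977 (median 766) on the 18 HEK293 arrays, each above all 107 olfactory receptor probe sets and higher than 75.9% to 84.2% of all probe sets of the array. In order of geometric mean, the rho0 group (1919) came first, then DN-POLG day 3 (872), DN-POLG day 0 (808), AOX/NDI1 day 0 (789), DN-POLG day 9 (650.2), AOX/NDI1 day 9 (602) and DN-POLG day 6 (496), with rho+ (10.4) last. Each HEK293 group overlapped its neighbour in this order, while rho0 and rho+ cells overlapped none.

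HAS2 had signals of 8.77 to 54.5 by 206432_at and 1.498 to 42.1 by 230372_at over the 18 HEK293 arrays, below the median of every array. These lay above 45 to 95 and above 5 to 87 of the 107 olfactory receptor probe sets. Among all probe sets of the array, they ranked above 18.8% to 45.8% and 2.71% to 39.4%. In rho+ cells HAS2 ranked above 26.9% to 49.5% by 206432_at and 37.6% to 59.1% by 230372_at. By 206432_at, rho0 cells (geometric mean 1098) stood above DN-POLG day 3 (42.4), rho+ (38.4), DN-POLG day 6 (33.7), DN-POLG day 9 (27.9), AOX/NDI1 day 0 (24.4), DN-POLG day 0 (22.8) and AOX/NDI1 day 9 (15.0), and all groups below rho0 overlapped their neighbours. By 230372_at, rho+ cells (80.1) lay apart from the HEK293 groups (30.1 at most), and AOX/NDI1 day 9 (4.21) lay below the rest.

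IL24 had signals of 2.03 to 74.4 (median 24.9) in HEK293 cells, above the array's median on 1 of 18 arrays (AOX/NDI1 day 9). After rho0 (1307) and rho+ (75.3), the HEK293 groups followed from DN-POLG day 6 (23.7) through DN-POLG day 0 (23.2), AOX/NDI1 day 9 (20.9), AOX/NDI1 day 0 (19.7) and DN-POLG day 3 (14.1) to DN-POLG day 9 (7.06), each overlapping the next. A2M by 217757_at had 2.08 to 67.2 (median 5.53) in HEK293 cells and was below the median of every array, whereas both 143B groups stood above all HEK293 groups. By 1558450_at it had 28.9 to 120.7 in HEK293 cells, above the median of 8 of 18 arrays and above 73 to 106 of the 107 olfactory receptor probe sets, so the A2M probe sets gave different pictures of HEK293 cells. All 8 groups overlapped their neighbours by 1558450_at, from rho+ (83.9) to rho0 (36.4).

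The signal filter, a mean signal of 57.2 over the 18 arrays, was passed by NPTX2 and by A2M 1558450_at, 2 of the 6 member probe sets. HAS2, IL24 and A2M 217757_at fell below it in HEK293 cells. Differences among signals this low were tested only with the filter left out.

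For NPTX2 the comparisons with day 0 in HEK293 cells are independent of the selection. DN-POLG cells had signals of 946, 644 and 867 at day 0, 828, 977 and 820 at day 3, 478, 424 and 600.2 at day 6 and 457, 774 and 777 at day 9. Days 3 and 9 overlapped day 0. All 3 arrays of day 6 lay below those of day 0, a difference that did not pass in limma (adjusted p = 0.173). The share of all probe sets that separate in this way is not given here. AOX/NDI1 cells had signals of 589.9, 488 and 759 at day 9, against 776, 909 and 698 at day 0, with overlap.

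No comparison of NPTX2 passed the test in limma. The log2 difference from day 0 in DN-POLG cells was 0.11 at day 3 (95% interval -0.42 to 0.64, adjusted p = 0.9997 from limma), -0.71 at day 6 (-1.23 to -0.18, unadjusted p = 0.0119 and adjusted p = 0.173) and -0.31 at day 9 (-0.84 to 0.21, adjusted p = 0.531). Over all probe sets tested, 0% were called at day 3, 1.37% at day 6 (318 probe sets, or 43 with the culture round as a block) and 8.38% at day 9. The adjusted p at day 6 ranged from 0.0743 to 0.808 over 15 alternatives, and the difference was -0.68 without replicate 1, whose ACTB ratio was high (adjusted p = 0.276).

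In AOX/NDI1 cells NPTX2 differed by -0.39 between days 9 and 0 (-0.92 to 0.14, adjusted p = 0.347 from limma), where 11.8% of probe sets were called. Without day 9 replicate 3, the array with the weakest POLG induction, the difference was -0.56 (adjusted p = 0.264). At day 0, AOX/NDI1 and DN-POLG cells differed by -0.03 (-0.56 to 0.49, adjusted p = 0.987), where 0.00432% were called. The day 9 responses of AOX/NDI1 and DN-POLG cells differed by -0.08 (-0.82 to 0.67, adjusted p = 0.999), where 0% were called. All 6 intervals lay between -1.23 and 0.67.

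**Figure D4:**
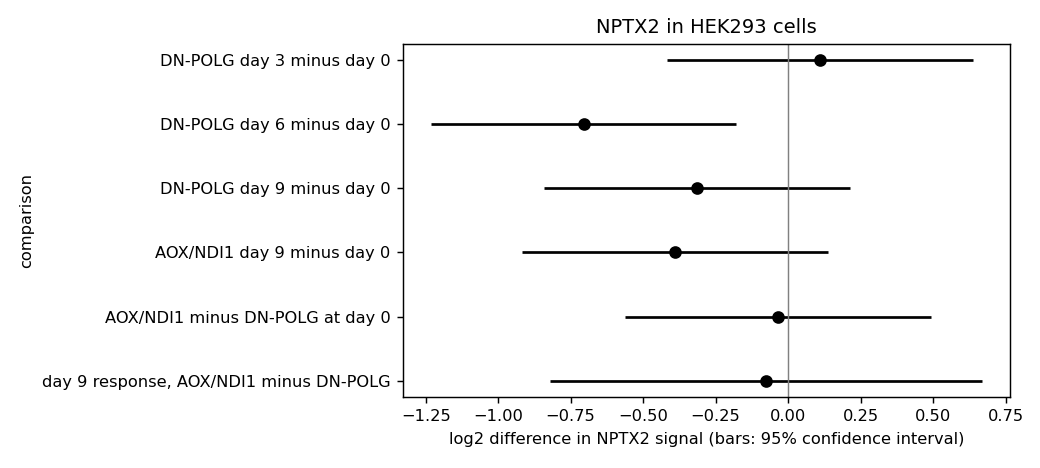
Difference in log2 NPTX2 signal (x axis) for 6 comparisons among HEK293 groups (y axis), from limma over 18 arrays with 3 cultures a group. Points are estimates and bars 95% confidence intervals; that of day 6 in DN-POLG cells, -1.23 to -0.18, lies below 0, and its adjusted p is 0.173.

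A2M 1558450_at passed in none of the 6 comparisons in HEK293 cells (log2 differences of -0.79 to 0.99, adjusted p = 0.624 to 0.9997 from limma). With no signal filter, 1 of the 6 member probe sets was called in 1 comparison. HAS2 230372_at had signals of 1.498, 12.4 and 4.03 at day 9 of AOX/NDI1 cells, against 28.6, 18.2 and 32.9 at day 0 (log2 difference -2.61, adjusted p = 0.0361 from limma). All of these lie among the signals of the olfactory receptor probe sets, and HAS2 206432_at had an adjusted p of 0.578. With no filter, 4.35% of probe sets were called in that comparison, and 0%, 0.0779%, 2.82%, 0.00487% and 0.00973% at DN-POLG days 3, 6 and 9, between the lines at day 0 and in the difference of day 9 responses.

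Genes that act with the members were described by their brightest probe set in that cell line. Of all 11433 genes tested in 143B cells, 2.57% were higher and 5.56% lower in rho0 than in rho+ cells (median log2 difference -0.02). In DN-POLG cells 1.36% of 12104 genes were higher and 6.27% lower at day 9 than at day 0, and in AOX/NDI1 cells 1.6% were higher and 9.92% lower.

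By their brightest probe sets, the listed hyaluronan genes did not pass in 143B cells, where HAS2 itself was not tested. Of 24 listed genes 11 were tested, with 0 higher and 0 lower (median log2 difference -0.33). HAS3, another hyaluronan synthase, had a log2 difference of -0.35, and UGDH, which makes the UDP-glucuronate that the synthases use, of -0.45. CD44 had 0.26 by its brightest probe set, the lowest of its 13 tested probe sets, all of which had positive differences (0.26 to 2.36) and 1 of which passed (229221_at, 2.36, adjusted p = 0.0463 from limma). HMMR, the other receptor, had 0.66 (adjusted p = 0.203). In HEK293 cells CEMIP2, a membrane-bound relative of the hyaluronan-degrading CEMIP, fell: signals were 82.6, 106 and 136 at day 9 of DN-POLG cells, against 253, 343 and 424 at day 0 (log2 difference -1.65, standard error 0.33, adjusted p = 0.00518 from limma). In AOX/NDI1 cells it fell by 1.96 (adjusted p = 0.00125), with 68.1, 84.5 and 92.7 at day 9, against 278, 313 and 359 at day 0. Both calls held in each of 14 alternatives. It was the 1 gene of 9 tested in this list that passed, in either line.

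For IL24, the cytokines IL10, IL19, IL20, IL22 and IL26 had signals of at most 57.1 in 143B arrays by any probe set, and 0 of them passed the filter. Of the receptor chains, IL20RB had 11.5 to 44.8 in rho0 arrays and 33.6 to 75.5 in rho+ arrays, while IL22RA1 had 25.6 to 100.4 in rho0 arrays and 67.0 to 96.2 in rho+ arrays. IL20RA had 6.49 to 67.3 in rho0 arrays and 47.0 to 86.0 in rho+ arrays by 222828_at, its highest probe set in 143B cells. The genes tested were IL10RA, IL10RB, JAK1, TYK2 and STAT3, receptor chains and signal carriers of the wider family, of which 0 of 5 passed (median log2 difference -0.12). At day 9, 0 of 5 passed in DN-POLG and in AOX/NDI1 cells, although 1 other STAT3 probe set, 243213_at, was higher in DN-POLG cells (1.98, adjusted p = 0.0129 from limma).

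Of the A2M family, CD109, a membrane-bound relative, had signals of 3912 to 6714 in rho0 arrays and 4909 to 7902 in rho+ arrays (log2 difference -0.15). LRP1, the receptor that clears A2M, had a difference of -0.58 (adjusted p = 0.267 from limma) by the probe set tested. PZP and A2ML1, close relatives, had at most 40.1 in 143B arrays, below the filter. In all, 0 of the 4 genes tested passed (median log2 difference 0.02). At day 9, 0 of 2 passed in either HEK293 line. One other LRPAP1 probe set, 235505_s_at, was lower in AOX/NDI1 cells (-1.60, adjusted p = 0.0213). LRPAP1 is a chaperone of LRP1.

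Among proteases, the class of protein that A2M traps, and their inhibitors, 2 matrix metalloproteases fell. MMP9, a gelatinase, had signals of 55.3, 79.1 and 104 in rho0 cells, against 833, 1073 and 3361 in rho+ cells (lowest to highest, log2 difference -4.23, standard error 0.51, adjusted p = 0.00696 from limma). MMP10, a stromelysin, had 81.4, 179 and 313 in rho0 cells, against 1272, 1278 and 2046 in rho+ cells (-3.17, standard error 0.47, adjusted p = 0.0110). Neither group overlapped the other. The MMP9 signals of 55.3 and 79.1 in rho0 cells lay below the signal filter of 83.3, so its rho+ arrays carried it through the filter. Both calls were lost with ordinary variance (adjusted p = 0.0857 and 0.103), and that of MMP10 also without rho+ replicate 2 (0.0605) and with no filter (0.0615). MMP9 and MMP10 were 2 of 14 genes tested, with 0 higher (median log2 difference -0.09). MMP1, a collagenase with signals of 12912 to 15545 in rho0 arrays and 23347 to 26180.3 in rho+ arrays, had -0.79 (adjusted p = 0.0667), and TIMP1, an inhibitor of metalloproteases, 1.00 (adjusted p = 0.109).

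At day 9 in DN-POLG cells 1 of 12 genes of this list was higher and 2 lower, with median -0.13. ADAMTS1, a protease of proteoglycans, had -1.13 (adjusted p = 0.0294 from limma), TIMP3, an inhibitor bound to the matrix, 0.92 (adjusted p = 0.0425), and PLAT, tissue plasminogen activator, -0.91 (adjusted p = 0.0478). The call held in 6 of 14, 5 of 14 and 2 of 13 alternatives, and all 3 were lost with the culture round as a block (adjusted p = 0.0585, 0.0727 and 0.0668). In AOX/NDI1 cells 1 was higher and 1 lower, ADAMTS1 at -1.68 (adjusted p = 0.00214, held in 14 of 14 alternatives) and TIMP3 at 1.02 (adjusted p = 0.0192, held in 10 of 14). Other probe sets of these genes disagreed: ADAMTS1 222486_s_at had 0.97 in DN-POLG and 0.62 in AOX/NDI1 cells (adjusted p = 0.123 and 0.298), and TIMP3 201150_s_at was lower in DN-POLG cells (-1.04, adjusted p = 0.0470).

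Among pentraxins and AMPA receptor subunits, the partners of NPTX2, 1 of 5 genes tested was higher in rho0 cells (median log2 difference -0.16). GRIA3, an AMPA receptor subunit, had signals of 266, 358 and 425 in rho0 cells, against 11.9, 22.0 and 53.8 in rho+ cells (log2 difference 3.83, standard error 0.51, adjusted p = 0.00763 from limma), by 1 of 5 probe sets, as the others lay below the filter. Its rho+ signals lay below the signal filter of 83.3, so GRIA3 was tested only through its rho0 arrays. It was tested in 9 of 14 alternatives. The call held in 8 of these and was lost with ordinary variance (adjusted p = 0.0931). NPTX1, the nearest relative of NPTX2, had -0.55 (adjusted p = 0.531), NPTXR, their membrane-bound receptor form, 0.79 (adjusted p = 0.156) and PTX3, a long pentraxin of immune defence, -0.16. In HEK293 cells 0 of 4 passed at day 9 in either line.

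**Figure D5:**
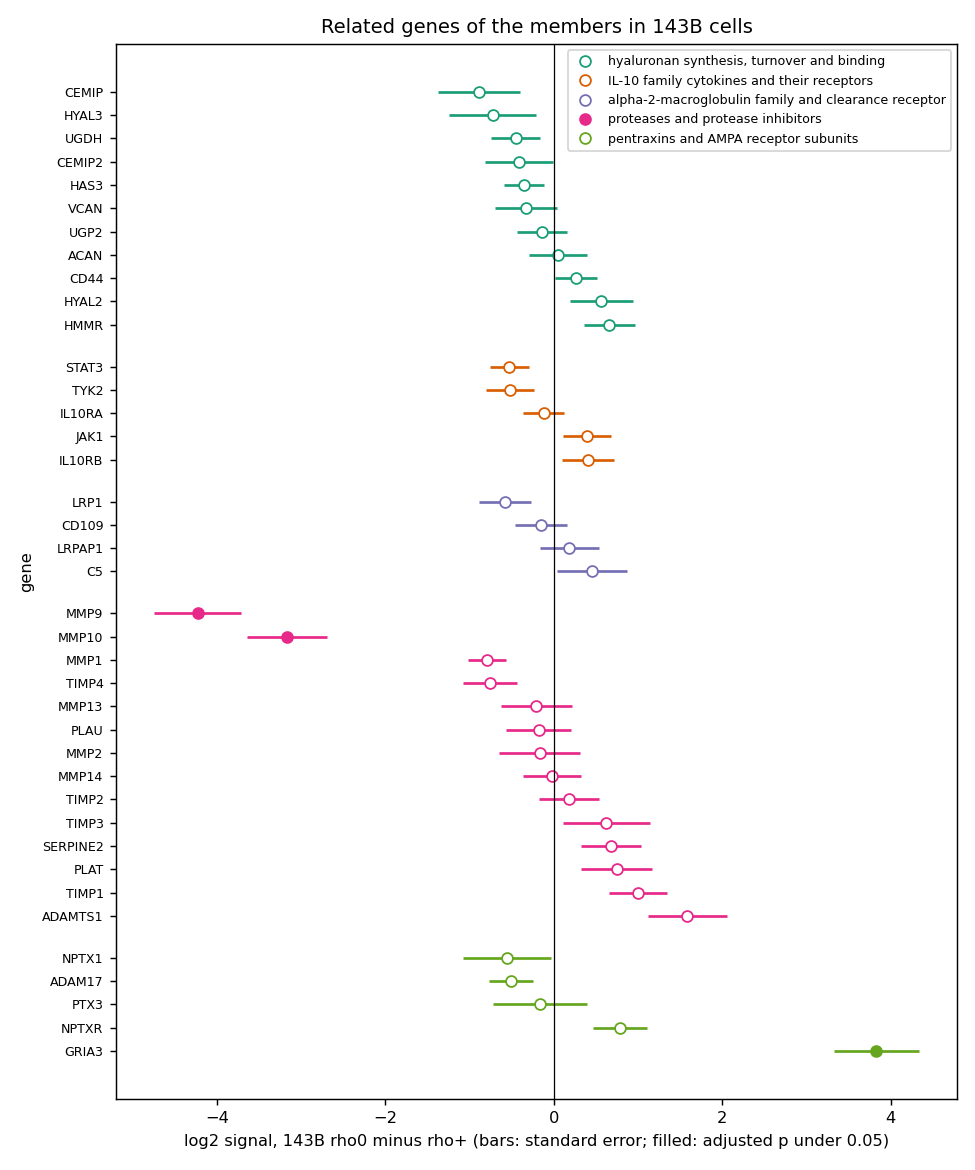
Difference in log2 signal, 143B rho0 minus rho+ (x axis), of the genes tested in each of 5 lists (y axis), by each gene's brightest probe set, from 3 arrays a group. Bars are standard errors and filled points have an adjusted p under 0.05, which are MMP9 (-4.23), MMP10 (-3.17) and GRIA3 (3.83). GRIA3 passed the signal filter only through its rho0 arrays, and MMP9 was carried through it by its rho+ arrays.

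The genes whose profile over the 8 group means was most like that of each member were sought by the root mean square difference in log2 signal after centring. These are descriptions, since the 143B groups that selected the members weigh most in them. For NPTX2 the 5 nearest were TMEM132E, GFRA1, a receptor of GDNF family ligands, DRD2, a dopamine receptor, LINC00460 and QPRT, an enzyme of NAD synthesis, at 0.79 to 1.05. GFRA1 had geometric mean signals of 122 in rho0, 6.56 in rho+ and 137 in HEK293 cells, and QPRT of 756, 49.4 and 1750.0, so both were low in rho+ cells alone. GFRA1 and TMEM132E were also among the 5 nearest by Pearson correlation over the 24 arrays.

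For HAS2 by 206432_at they were FENDRR, a noncoding RNA, SUN3, ALPK2, MICALCL and FGF1, a growth factor, at 0.56 to 0.70, of which 0 were among the 5 nearest by correlation. By 230372_at they were PLA2G5, LINC02910, MGP, a matrix protein, GRIA3 and FOXF1, a transcription factor, at 0.73 to 0.88, of which FOXF1 was. FENDRR had 891 in rho0, 122 in rho+ and 54.5 in HEK293 cells, and FOXF1 had 3470.0, 928 and 159. For IL24 they were UNC5D, a netrin receptor, B3GALT2, LINC02910, MEST and HSD17B2 at 0.50 to 0.78, of which UNC5D was also near by correlation. UNC5D had 469 in rho0, 47.7 in rho+ and 8.06 in HEK293 cells.

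For A2M by 217757_at the nearest were ICAM1, an adhesion molecule, SSPN, SHROOM4, NRROS and TMEM255B at 0.58 to 0.89, of which NRROS was among the 5 nearest by correlation. ICAM1 had 687 in rho0, 6609 in rho+ and 42.0 in HEK293 cells. A2M 1558450_at, whose groups overlapped, was nearest to FAM13A-AS1, KLHL28, PSMA5, CGN and ATP6V1D at 0.18 to 0.22, of which 0 were near by correlation. An antisense transcript, A2M-AS1, had signals of 34.3 ± 11.9 in rho0 and 78.4 ± 24.2 in rho+ cells (SD, n = 3 each), and the pseudogene A2MP1 had 39.8 ± 22.5 and 94.99 ± 13.2. Whether A2M probe sets also read these transcripts was not tested.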

How the data were processed

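RNA of 24 cultures was hybridised to Affymetrix HG-U133 Plus 2.0 arrays, and the authors deposited MAS5 signal intensity made with Affymetrix Expression Console, with no detection calls. Log2 signals were fitted with limma 3.58.1 (R 4.3.3), separately for 18 HEK293 arrays (6 group means) and 6 143B arrays, with the Benjamini-Hochberg adjustment over all probe sets tested (threshold 0.05). Tested were probe sets with 1 gene symbol and a mean log2 signal at or above the median of all (5.84 in HEK293, 6.38 in 143B cells), 23132 and 22786 of 54675. Probe sets with several symbols (1801), no symbol (11777) and 62 controls were left out. The scripts were tested on simulated data. The number of arrays limits the precision, and p-values measure the spread between cultures.

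The members and gene lists were chosen with earlier results of these data known. The text names the 4 genes, list genes that passed, the 5 genes nearest to each member and the 5 largest differences in each direction in 143B cells. List genes named without a call were chosen after their values were seen. Groups came from the sample labels. The study describes each round of cultures as grown from 1 starter culture, so replicate numbers pair arrays within DN-POLG and within AOX/NDI1 cells. Deviations of same-numbered arrays from their group means correlated with those at day 0 at 0.323 to 0.506 (DN-POLG day 3), 0.165 to 0.205 (day 6), -0.320 to 0.0399 (day 9) and -0.0385 to 0.0663 (AOX/NDI1 day 9). Nothing in the labels pairs the 143B arrays. Alternatives were quantile or median scaling, no or a stricter filter (75th percentile), 16 added before log2, fewer probe sets, fewer arrays, a replicate block, ordinary variance and 1 array left out. Promoters came from RefSeq (GRCh38.p14).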

Additional observations from a re-analysis of the deposited data

Results flagged for a closer look

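For some genes all 3 arrays of 143B rho0 cells lay on 1 side of the rho+ mean (log2 signals). In 1 or both HEK293 lines, all 3 arrays of day 9 lay on the other side of the day 0 mean. None of these differences between cell lines was tested, as the lines were fitted apart. NPTX2 and HAS2 were selected on their 143B differences, so large gaps for them were fixed in advance. NPTX2 was 7.52 higher in rho0 cells and -0.31 at day 9 in DN-POLG cells, a gap of 7.84, and -0.39 at day 9 in AOX/NDI1 cells, a gap of 7.91. Neither HEK293 difference of NPTX2 was called (adjusted p = 0.531 and 0.347 from limma). HAS2 differed by 4.84 and 4.45 (its 2 probe sets) in 143B cells and by -0.70 and -2.61 in AOX/NDI1 cells, gaps of 5.54 and 7.06. In DN-POLG cells HAS2 differed by 0.30 and 0.15 at day 9, the direction seen in 143B cells. The HEK293 signals of HAS2 lie among those of the olfactory receptor probe sets. ADAMTS1, by the probe set called at day 9, differed by 1.51 in 143B cells (not called, adjusted p = 0.131 from limma), by -1.13 in DN-POLG cells and by -1.68 in AOX/NDI1 cells, gaps of 2.64 and 3.18. Its other probe set had positive differences in all 3 comparisons (1.59, 0.97 and 0.62), none called, so the opposite signs rest on 1 probe set. MMP10 differed by -3.17 in 143B cells and 0.10 in DN-POLG cells (not called, adjusted p = 0.941 from limma), a gap of -3.27. MMP9 differed by -4.23 in 143B cells and 0.46 in AOX/NDI1 cells (not called, adjusted p = 0.272 from limma), a gap of -4.69. In the other HEK293 line each went in the 143B direction. MMP10 differed by -0.72 in AOX/NDI1 cells and MMP9 by -0.38 in DN-POLG cells, neither called.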

How the results depend on the processing

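Of 648 values of the 4 genes under alternatives, 634 were unchanged, 4 moved and 10 reversed, and no NPTX2 comparison in HEK293 cells was called under any. For probe sets past the filter in HEK293 cells, unchanged means the same direction and side of the threshold. In 143B cells it means the same direction and a value within the pooled SD of that reported. For probe sets below the HEK293 filter it means the latter alone, and some of these changed sign. HAS2 206432_at at DN-POLG day 6 (0.57) ranged from -0.12 to 0.95. With 16 added, NPTX2 differed by 6.07 in 143B cells. Its difference of day 9 responses was 0.0259 with arrays set to one median, and -0.33 to 0.0878 with 1 array left out, which also gave -0.0545 to 0.22 at DN-POLG day 3 and -0.20 to 0.0791 between the lines at day 0. Of 132 values of called list genes, 95 kept the call, 37 lost it and 0 reversed. Alternatives in which a probe set was no longer tested are not among the 132. In 143B cells GRIA3 was tested in 9 and MMP9 in 12 of 14 alternatives. Protease genes lower in 143B rho0 cells numbered 1 with no filter, in place of 2.

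The counts of probe sets called depended more on the processing. DN-POLG day 3 (0 called) had 1 with only its own arrays and 0 to 1 with 1 array left out. Day 6 (318) had 182 with quantile scaling, 125 with one median, 32 with no filter, 157 with the stricter filter, 1 with only its own arrays, 43 with the replicate block and 51 to 922 with 1 array left out. Day 9 (1939) had 1160 with no filter, 1040 with the stricter filter, 427 with only its own arrays and 1026 to 2250 with 1 array left out. AOX/NDI1 day 9 (2728) had 1789, 1423, 7613 and 1366 to 2077 under the same settings. The lines at day 0 (1) had 2 with no filter, 6 with 16 added, 0 without probe sets shared by several transcripts, 5 with only their own arrays and 1 to 4 with 1 array left out. The difference of day 9 responses (0) had 4 with no filter and 0 to 11 with 1 array left out. 143B (1743) had 451 with no filter, 966 with the stricter filter, 725 with the replicate block, 93 with ordinary variance and 234 (without rho+ replicate 2) to 5891 (without rho0 replicate 3) with 1 array left out. Causes were not tested. Of the pairings in HEK293 cells, the block changed no call of the 4 genes but ended those of ADAMTS1, TIMP3 and PLAT at DN-POLG day 9, and it could not be fitted between the lines at day 0, grown in different rounds.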
